A study of Mus with 6 samples.

Results

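The insulin-like growth factor (IGF) system was examined in the hippocampus of mice with and without forced swim stress (FSS). It was represented by 10 genes, which are the ligands Igf1 and Igf2, the receptors Igf1r and Igf2r, and the binding proteins Igfbp2, Igfbp3, Igfbp4, Igfbp5, Igfbp6 and Igfbp7. These are 10 of the 19938 genes measured on the arrays. Each was taken from a row of the expression table that the array annotation gives to exactly 1 gene symbol, and where a symbol has several rows, the row would be chosen by its highest mean level over the 6 arrays. All 10 genes had 1 row, so no level decided between rows. The family was picked out when the difference of Igfbp2 was already known, so the values of Igfbp2 below are a description and not independent evidence.

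RNA from the hippocampus of 3 control mice, which were not made to swim, and of 3 FSS mice, which swam for 11 min on each of 5 consecutive days in water at 25 °C, was measured on GeneChip Mouse Gene ST arrays, 1 mouse per array. All mice were males of the inbred strain C57BL/6JJmsSlc, aged 10 to 11 weeks by the labels, and no transgene or drug is named for either group. By the methods, 3 of the mice analysed under FSS were selected at random from a larger set for this comparison. The values are log2 levels made by robust multi-array averaging (RMA), which corrects for background, gives all arrays a common distribution and combines the probes for a gene into 1 value.

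The medians of the 6 arrays were nearly equal, with a largest gap of 0.032 (log2). Of 14 markers of hippocampal granule and pyramidal cells, 13 lay above the median level of all rows, among them Prox1 of granule cells (percentile 85.7) and Neurod6 of pyramidal cells (percentile 92.5). With 3 mice against 3, an exact permutation test gives no p under 0.1, so the number of arrays limits the precision of every comparison.

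IGF-I and IGF-II are small secreted proteins related to insulin. They signal through the tyrosine kinase receptor encoded by Igf1r, which acts on the PI3K-Akt-mTOR and MAP kinase pathways, whereas the receptor encoded by Igf2r carries no kinase and takes IGF-II to lysosomes for degradation. The secreted binding proteins hold the ligands outside the cell, prolong their life and either block or help their access to the receptor, and proteases release the ligands from them. In the adult rodent brain, Igf2 and Igfbp2 are known from the meninges and the choroid plexus, Igfbp2 also from astrocytes, Igf1 from microglia and some neurons, and Igfbp7 from blood vessels. IGF-I and IGF-II are known for roles in adult neurogenesis and in hippocampal memory in rodents.

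In FSS mice, Igfbp2 was higher than in control mice by 0.36 on the log2 scale, a 1.28-fold difference, and it was the 1 gene of the family that passed an unadjusted p of 0.05 from limma, the moderated test fitted over all 21789 rows with 1 symbol. The other 9 genes did not pass, and their log2 fold changes lay between -0.081 for Igfbp6 and 0.22 for Igf2. Thus 1 of 10 was higher, beside 2.49% of all rows, and 0 of 10 were lower, beside 2.66% of all rows (5.14% in either direction). None reached a log2 fold change of 0.5 together with an unadjusted p under 0.05, the thresholds of the study's volcano plot, which 0.0688% of all rows passed. After Benjamini-Hochberg adjustment over all rows no gene of the family passed 0.05 in limma (the smallest adjusted p was 0.943), and 0% of all rows did. In 3 of the 10 genes, Igf2, Igf2r and Igfbp2, the FSS mice all had higher levels than the control mice, as in 6.02% of all rows, and in 2, Igf1r and Igfbp6, they all had lower levels, as in 4.25% of all rows. The median log2 fold change of the family was 0.066, against 0.0049 over all rows. These counts and this median include Igfbp2, whose difference was known when the family was picked. Their contrast with all rows is therefore a description and not evidence about the family.

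**Figure D1:**
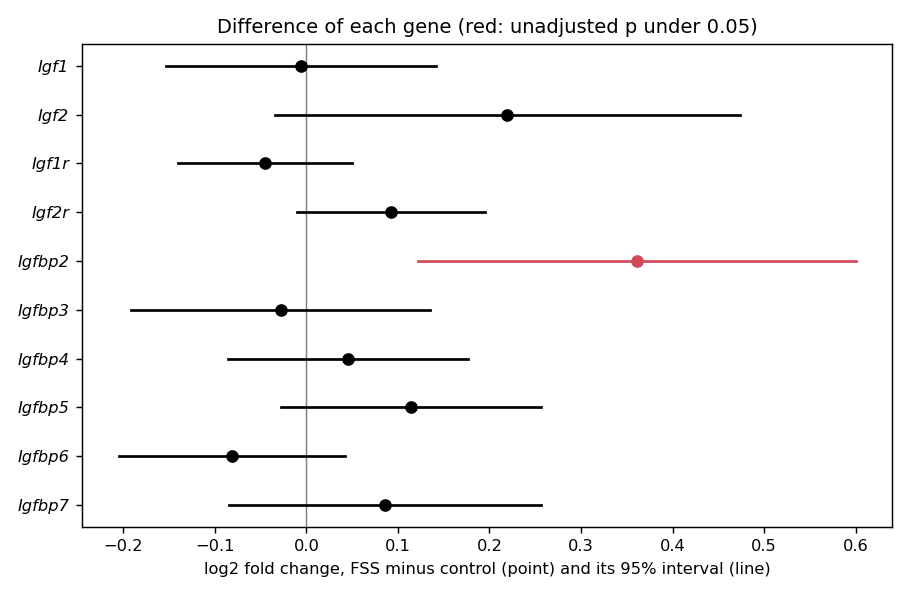
Log2 fold change (x axis, FSS minus control) of the 10 genes of the IGF system (y axis), with points for the difference of 3 FSS and 3 control mice and lines for the 95% interval from limma. The interval of Igfbp2, 0.12 to 0.60, lies above 0, and the other 9 intervals reach across 0.

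Igf2 encodes the ligand IGF-II. Its log2 level was 8.64, 8.68 and 8.66 in control mice 1, 2 and 3, and 8.71, 9.14 and 8.80 in FSS mice 1, 2 and 3. The control mice were almost identical, the FSS mice all lay above them, and FSS mouse 2 stood well above the other FSS mice. The group levels were 8.66 ± 0.022 (SD, n = 3) in control and 8.88 ± 0.23 (SD, n = 3) in FSS mice, so that the SD of the FSS group was 10.4 times that of the control group. The log2 fold change of 0.22 (95% interval -0.034 to 0.47, limma unadjusted p = 0.080, adjusted p = 0.943) did not pass the threshold. The exact two-sided permutation test gave p = 0.1, the smallest possible with these groups. The difference depended on single mice, being 0.092 without FSS mouse 2 (limma unadjusted p = 0.121), and 0.31 without FSS mouse 1, where it passed the unadjusted threshold (limma unadjusted p = 0.0265).

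Igf1 encodes the ligand IGF-I. It had log2 levels of 7.83, 7.89 and 7.90 in control mice 1 to 3 and of 7.77, 7.85 and 7.98 in FSS mice 1 to 3. The lowest and the highest level both came from FSS mice, and the groups overlapped completely. The group means of 7.874 and 7.868 differed by -0.0057 on the log2 scale, with a 95% interval from -0.15 to 0.14 (limma unadjusted p = 0.930). The interval corresponds to 0.899 to 1.10-fold, so larger differences of Igf1 than these lie outside it.

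Igf2r, the receptor that clears IGF-II, had log2 levels of 8.74, 8.82 and 8.78 in control mice 1 to 3 and of 8.88, 8.84 and 8.90 in FSS mice 1 to 3. All 3 FSS mice lay above all control mice, although FSS mouse 2 exceeded control mouse 2 by little. The difference was 0.092 on the log2 scale (standard error 0.043, limma unadjusted p = 0.0711, adjusted p = 0.943), with an exact permutation p of 0.1. Igf1r, the signalling receptor, was the least variable gene of the family. It had log2 levels of 9.71, 9.70 and 9.72 in control mice 1 to 3 and of 9.70, 9.65 and 9.64 in FSS mice 1 to 3. The FSS mice lay below the control mice, with FSS mouse 1 at almost the level of control mouse 2. The difference was -0.045 (95% interval -0.14 to 0.050, limma unadjusted p = 0.297, exact permutation p = 0.1).

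**Figure D2:**
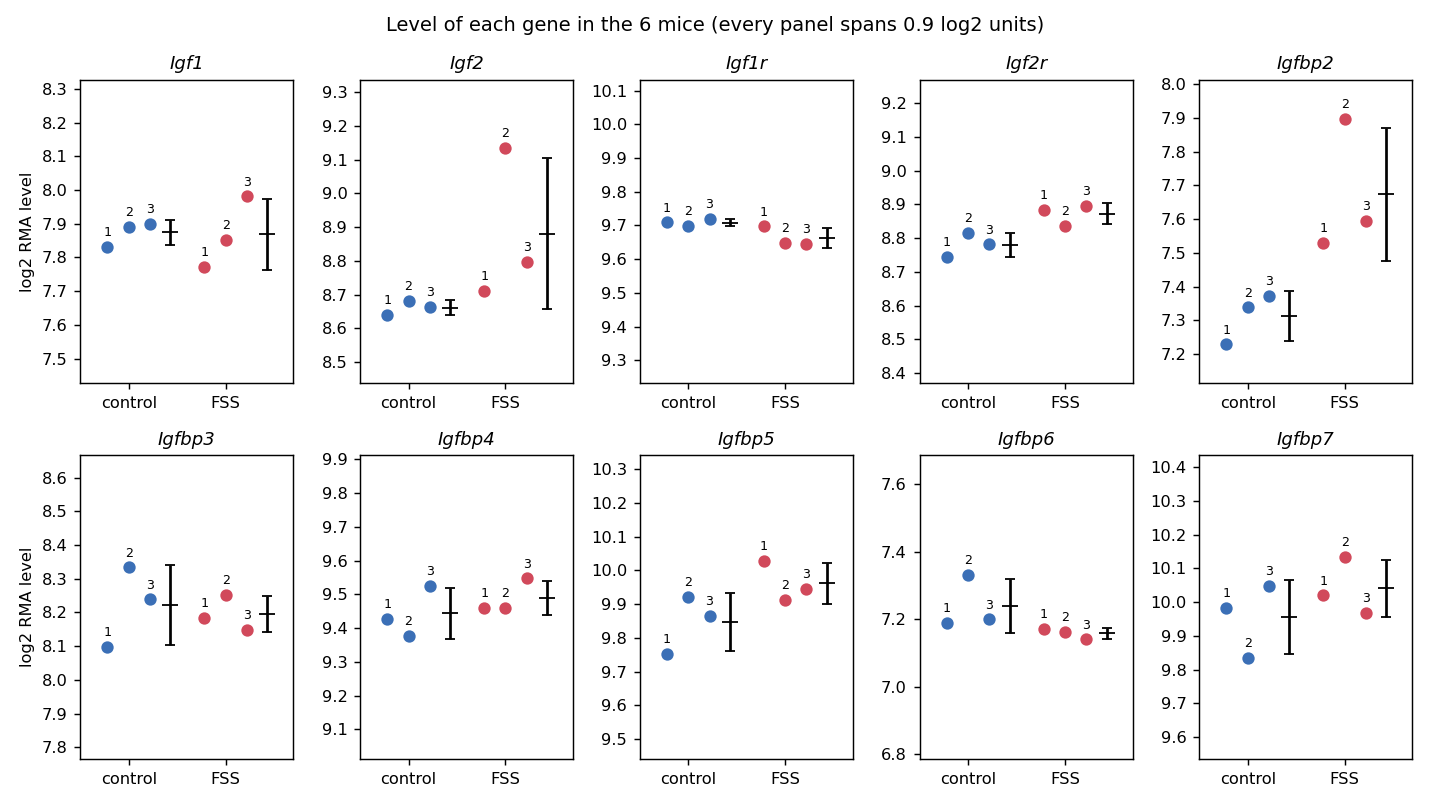
Log2 RMA level (y axis, 0.9 log2 units in every panel) of each gene in the 3 control and the 3 FSS mice (x axis), with numbered points for mice and a bar for the mean ± SD of the group. FSS mouse 2 has the highest level of Igf2, 9.14, and of Igfbp2, 7.90, and the 6 mice differ by no more than 0.075 in Igf1r.

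Igfbp2 encodes a binding protein that prefers IGF-II. Its log2 level was 7.23, 7.34 and 7.37 in control mice 1 to 3 and 7.53, 7.90 and 7.59 in FSS mice 1 to 3. The groups did not overlap, and FSS mouse 2 was again the highest. The group levels were 7.31 ± 0.075 (SD, n = 3) in control and 7.67 ± 0.20 (SD, n = 3) in FSS mice. The difference was 0.36 on the log2 scale (standard error 0.10, limma unadjusted p = 0.00931, adjusted p = 0.943, exact permutation p = 0.1). It corresponds to 1.28-fold with a 95% interval from 1.09 to 1.52-fold. In size and sign this difference lay at percentile 99.9 of all rows. Without FSS mouse 2 it was 0.25 and still passed the unadjusted threshold (limma unadjusted p = 0.00763), and in the 6 omissions of 1 mouse it ranged from 0.25 to 0.43. Igfbp2 was also 1 of 2 genes of the family whose mean level lay below the median of all rows (percentile 47.4), the other being Igfbp6 (percentile 42.8).

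Igfbp5 encodes a binding protein that also attaches to extracellular matrix, and its gene is the next coding gene to Igfbp2 in the RefSeq annotation of GRCm38.p6. Its log2 levels were 9.75, 9.92 and 9.87 in control mice 1 to 3 and 10.03, 9.91 and 9.94 in FSS mice 1 to 3. FSS mouse 1 was the highest and control mouse 1 the lowest, and control mouse 2 lay within the FSS group. The difference of 0.11 (95% interval -0.027 to 0.26, limma unadjusted p = 0.0974) did not pass.

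Igfbp6, whose product binds IGF-II with marked preference, was the family's largest difference below 0. It had log2 levels of 7.19, 7.33 and 7.20 in control mice 1 to 3 and of 7.17, 7.16 and 7.14 in FSS mice 1 to 3. The FSS mice were close together and lay below every control mouse, while control mouse 2 stood above the rest. The difference was -0.081 (95% interval -0.21 to 0.042, limma unadjusted p = 0.163, exact permutation p = 0.1), and -0.036 without control mouse 2.

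Igfbp7 encodes a secreted protein related to the other binding proteins that binds IGFs weakly and is known from the vessel wall. Its log2 levels were 9.98, 9.84 and 10.05 in control mice 1 to 3 and 10.02, 10.14 and 9.97 in FSS mice 1 to 3. Control mouse 2 was the lowest and FSS mouse 2 the highest, and the groups overlapped (difference 0.086, limma unadjusted p = 0.273). Igfbp4, which encodes an inhibitory binding protein cleaved by the protease Pappa, ranged from 9.38 to 9.53 in control and from 9.46 to 9.55 in FSS mice (difference 0.045, limma unadjusted p = 0.437). Igfbp3, the main carrier of IGFs in blood plasma, ranged from 8.10 to 8.33 in control and from 8.15 to 8.25 in FSS mice, with the FSS group inside the control range (difference -0.028, limma unadjusted p = 0.694). For these 3 genes the 95% intervals together spanned from -0.19 to 0.26 on the log2 scale.

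The mice did not order alike in the different genes. FSS mouse 2 was the highest of all mice in 3 of the 10 genes (Igf2, Igfbp2 and Igfbp7), FSS mouse 3 in 3 (Igf1, Igf2r and Igfbp4) and FSS mouse 1 in 1 (Igfbp5), while control mouse 1 was the lowest in 5 (Igf2, Igf2r, Igfbp2, Igfbp3 and Igfbp5). Igf2 and Igfbp2 were set against each other and against markers of the meninges and of the choroid plexus, Igf1 against microglial and interneuron markers, and Igfbp7 against endothelial markers. In all, 8 such relations over the 6 mice were computed, and p-values were adjusted over these 8. The mice belong to 2 groups, so a relation over all 6 also holds the difference between the groups, and r was therefore given as well for the deviations of each mouse from its group mean.

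Across the 6 mice, Igf2 and Igfbp2 had a Pearson's r of 0.943 and a Spearman's rho of 0.943, which are given as a description with no p, since the difference of Igfbp2 was known when the family was picked. Without FSS mice 2 and 3, the mice farthest from the median of Igf2, r was 0.928. The mice left were FSS mouse 1 and the control mice, almost identical in Igf2, so this r also holds the group difference. For the deviations from the group means, with FSS mouse 2 included, r was 0.956. Within the 3 control mice r was 0.775, and within the 3 FSS mice it was 0.9996. Among 9969 genes with a mean level above the median of all genes, Igf2 took rank 13 in likeness to Igfbp2. The 5 genes of highest r with Igfbp2 over the 6 arrays were Lrrc59 (r = 0.993), Stom (r = 0.984), Smim14 (r = 0.978), Fbxo46 (r = 0.969) and Lgals9 (r = 0.961). Those with Igf2 were Klhl26 (r = 0.977), Fbxo46 (r = 0.976), Ppp1r1a (r = 0.969), Ndufb10 (r = 0.966) and Mdfic (r = 0.965), and only Fbxo46 stood in both lists of 5. With 6 arrays many genes reach such values, since 36 genes had an r above 0.9 with Igfbp2 and 31 with Igf2.

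**Figure D3:**
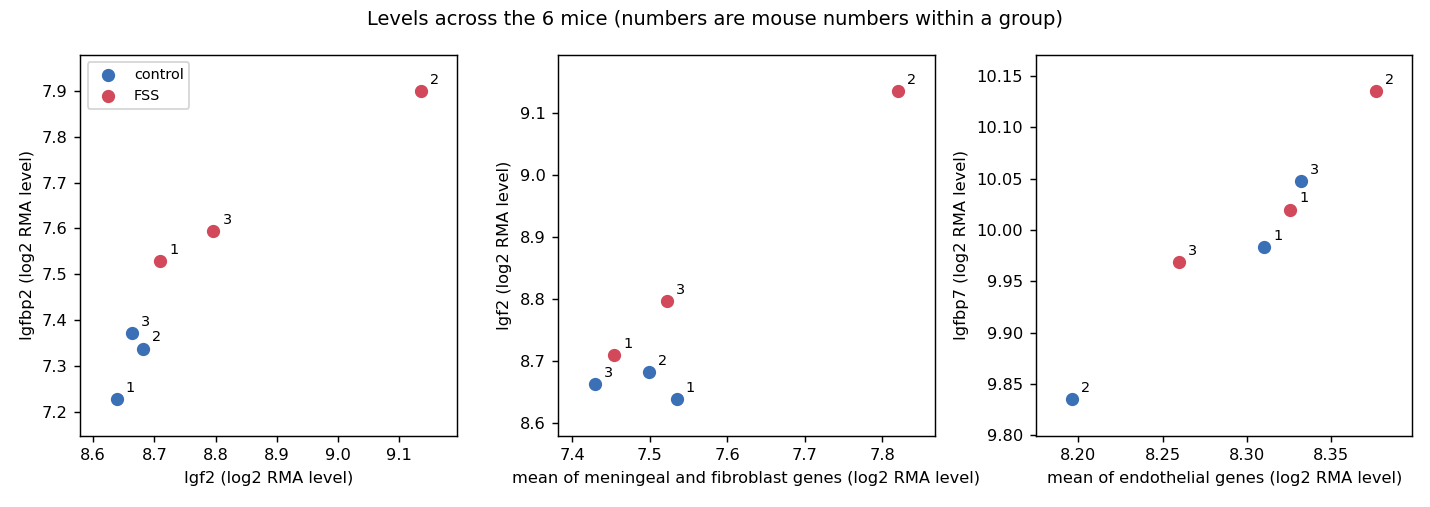
Log2 RMA levels in the 6 mice, of Igfbp2 (y axis) against Igf2 (x axis), of Igf2 against the mean of 17 meningeal and fibroblast genes, and of Igfbp7 against the mean of 12 endothelial genes, with blue points for control and red points for FSS mice. FSS mouse 2 stands apart in the meningeal mean, at 7.82, and in Igf2, whereas Igfbp7 and the endothelial mean order the 6 mice identically.

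Markers of the meninges and of fibroblasts moved with Igf2 and Igfbp2 in FSS mouse 2. All 17 listed markers were measured, and FSS mouse 2 had the highest level of the 6 mice in 14 of them. Their mean log2 level was 7.82 in FSS mouse 2, 7.45 and 7.52 in FSS mice 1 and 3, and 7.43 to 7.53 in the control mice. No detection call was computed for these markers. Of the 17, 9 lay below the median level of all rows, among them Foxd1 (percentile 23.5) and Lum (percentile 31.6). The collagen gene Col1a2 was 7.85 in FSS mouse 2 against 7.60 to 7.72 in the others, and the matrix protein gene Mgp 7.65 against 6.69 to 6.97. Igf2 followed the mean of this list with r = 0.933 (exact permutation p = 0.0722, adjusted p = 0.193, rho = 0.371 with an exact permutation p of 0.497), and Igfbp2 with r = 0.770 (exact permutation p = 0.104, adjusted p = 0.208, rho = 0.257 with an exact permutation p of 0.658). For the deviations from the group means, with FSS mouse 2 included, r was 0.949 for Igf2 and 0.817 for Igfbp2. The groups had opposite signs. Within the 3 control mice r was -0.388 for Igf2 and -0.883 for Igfbp2, and within the 3 FSS mice 0.9998 and 0.9999. Without FSS mouse 2 and control mouse 3, the mice farthest from the median of the list, r fell to -0.066 for Igf2 and -0.43 for Igfbp2, so both relations rest on those mice. Between the groups, 2 of the 17 markers passed upward in FSS mice (Lum and Slc13a3), beside 2.49% of all rows, and 0 downward, beside 2.66%, and the list's median log2 fold change was 0.12, which was 0.016 without FSS mouse 2. The list had 2 genes higher and 2 lower without FSS mouse 2, 4 higher without FSS mouse 1 and 1 higher without control mouse 3. The difference of Igfbp2 without FSS mouse 2 was 0.25, as given above. FSS mouse 2 also stood apart in markers of other cells. It had the lowest level of the 6 mice in 7 of 10 oligodendrocyte genes (mean log2 level 10.14, against 10.25 to 10.51 in the others) and the highest in 5 of 10 genes of mural cells, the cells that wrap vessels (8.06, against 7.87 to 7.96). In RNA from a whole dissection, more cells of a type and more RNA per cell cannot be told apart, and the part of meningeal tissue in the levels of Igf2 and Igfbp2 was not tested.

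The markers of choroid plexus epithelium moved less clearly with both genes. Of 14 measured, Ttr (chosen by the study from these arrays for its difference) was higher in FSS mice and 0 were lower, 12 lay below the median level of all rows, and the mean log2 level was 6.38 to 6.59 in control and 6.49 to 6.67 in FSS mice. Ttr did not pass without FSS mouse 1 or FSS mouse 3, and 2 genes were lower without FSS mouse 2. FSS mouse 1, not FSS mouse 2, had the highest mean. The relation to the mean of all 14 genes had r = 0.329 for Igf2 (exact permutation p = 0.476, adjusted p = 0.685, rho = 0.429 with an exact permutation p of 0.419) and r = 0.341 for Igfbp2 (exact permutation p = 0.514, adjusted p = 0.685, rho = 0.257 with an exact permutation p of 0.658). Without control mouse 3 and FSS mouse 1 these were 0.507 and 0.328, and for the deviations from the group means 0.034 and -0.107. The part of choroid plexus tissue was not tested. Of 14 astrocyte genes, all measured, 3 were higher and 3 lower in FSS mice, beside 2.49% and 2.66% of all rows, with 1 to 2 higher and 0 to 2 lower when any 1 mouse was left out. Their median log2 fold change was 0.021, and their mean log2 level was 10.47 to 10.52 in control and 10.49 to 10.54 in FSS mice, which overlapped. The relation of Igfbp2 to these genes, and their part in its level, was not tested.

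Igfbp7 ordered the 6 mice exactly as the mean of 12 endothelial genes did. Pearson's r was 0.973 (exact permutation p = 0.00139, adjusted p = 0.0111), Spearman's rho was 1 (exact permutation p = 0.00278), and r was 0.977 for the deviations from the group means. Without control mouse 2 and FSS mouse 2, the farthest from the median, r was 0.853. The endothelial mean was 8.31, 8.20 and 8.33 in control mice 1 to 3 and 8.33, 8.38 and 8.26 in FSS mice 1 to 3, so it was lowest in control mouse 2 and the groups overlapped. Control mouse 2 had the lowest level of 8 of the 12 endothelial genes. It was also the lowest in 12 of 18 microglial, 8 of 14 granule and pyramidal and 6 of 14 astrocyte genes. In oligodendrocyte and interneuron genes it was the lowest in 1 of 10 and 1 of 11. Igfbp7 was set against no list but the endothelial one. Between the groups 0 endothelial genes were higher and 1, the glucose transporter gene Slc2a1, was lower, beside 2.49% and 2.66% of all rows. Slc2a1 did not pass without control mouse 2, control mouse 3 or any 1 of the FSS mice. Leaving out control mouse 1 gave 2 higher endothelial genes, and leaving out control mouse 3 or FSS mouse 3 gave 1.

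Igf1 was set against both lists of cells it is known from, and neither relation passed. Against the mean of 18 microglial genes r was -0.255 (exact permutation p = 0.628, adjusted p = 0.717, rho = -0.314 with an exact permutation p of 0.564), and against the mean of 11 interneuron genes r was -0.011 (exact permutation p = 0.990, adjusted p = 0.990, rho = -0.086 with an exact permutation p of 0.919). Without the 2 mice farthest from the median these were -0.115 and 0.532, and for the deviations from the group means -0.368 and -0.010. The microglial mean was 8.36 to 8.55 in control and 8.58 to 8.66 in FSS mice, which did not overlap, and 8 of the 18 genes were higher in FSS mice, beside 2.49% of all rows (5 without FSS mouse 1, control mouse 2 or control mouse 3, and 12 without control mouse 1). Igf1 differed by -0.0057 in the same samples.

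**Figure D4:**
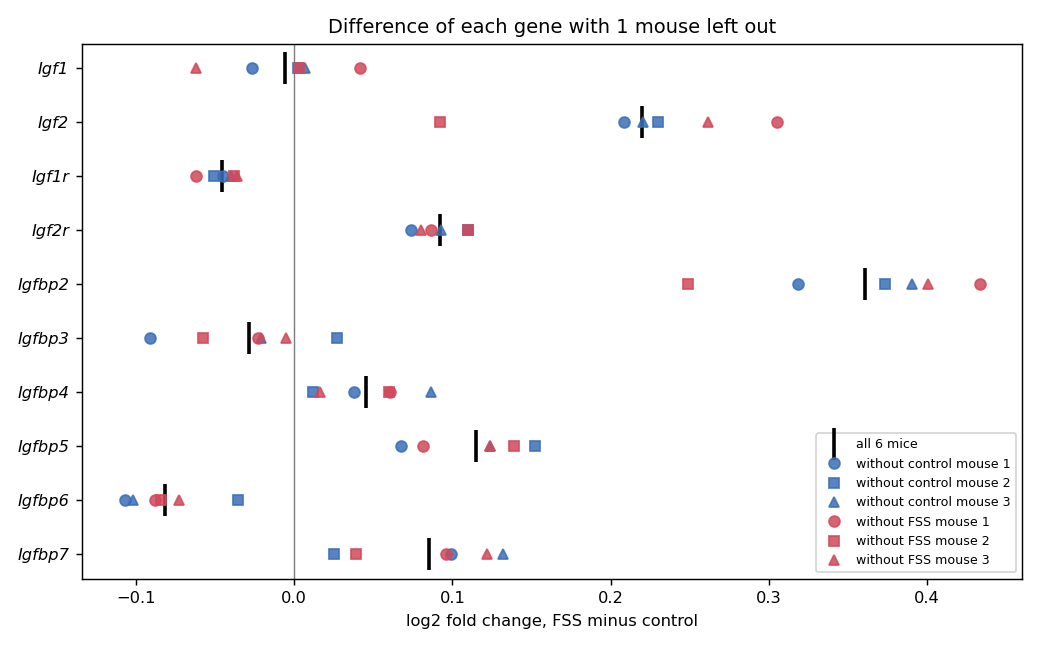
Log2 fold change (x axis, FSS minus control) of each gene (y axis) with all 6 mice (black line) and with each mouse left out (symbols, blue for control and red for FSS mice). Igfbp2 stays between 0.25 and 0.43, Igf2 falls to 0.092 without FSS mouse 2, and Igf1 lies on both sides of 0.

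Genes that act with the family were grouped by role, and 61 different genes of these groups were measured. Of them 0 were higher and 1 was lower in FSS mice at an unadjusted p under 0.05, beside the 2.49% and 2.66% of all rows given above. Their median log2 fold change was -0.0054 (0.0049 over all rows), and 60 of the 61 differed by less than 0.2. The gene that was lower, Htra1, encodes a secreted serine protease that can cleave binding proteins and itself carries an IGFBP domain. It had log2 levels of 10.16, 10.33 and 10.35 in control mice 1 to 3 and of 10.09, 10.05 and 10.19 in FSS mice 1 to 3. FSS mouse 3 lay above control mouse 1, so the groups overlapped. The difference was -0.17 (standard error 0.069, limma unadjusted p = 0.044, adjusted p = 0.943), and it passed the unadjusted threshold in 7 of 14 alternatives, where it ranged from -0.13 to -0.23. It did not pass without control mouse 2, control mouse 3, FSS mouse 1 or FSS mouse 2.

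Of the 17 measured genes of the IGF system outside the family, 16 did not pass. They include the insulin receptor gene Insr (log2 fold change -0.065), whose product can pair with that of Igf1r, the growth hormone receptor gene Ghr (0.091), and the plasma binding protein gene Igfbp1 (-0.10), the next coding gene to Igfbp3. Of the proteases that cut binding proteins, Pappa had a log2 fold change of -0.031 and Pappa2 of -0.16 (limma unadjusted p = 0.095). Of their inhibitors, the stanniocalcins, Stc1 had a log2 fold change of 0.052 and Stc2 of 0.074. In Stc2 the groups did not overlap, with FSS mice at 7.60 to 7.70 and control mice at 7.56 to 7.58.

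Of 13 other genes whose products carry an IGFBP domain, 12 did not pass, Htra1 being the exception. The matricellular gene Ccn2 had the lowest log2 fold change, -0.24 (95% interval -0.62 to 0.13, limma unadjusted p = 0.170), with FSS mouse 2 at 8.82 and FSS mice 1 and 3 at 8.42 and 8.43. Ccn3, a hippocampal member of the same protein family, differed by 0.024.

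Of 29 measured signalling genes below the receptors, 0 passed in either direction, and their median log2 fold change was -0.0042. The substrate genes Irs1 and Irs2 differed by -0.040 and -0.025, the kinase genes Akt1, Akt2 and Mtor by 0.019, 0.11 and 0.0024, and the transcription factor genes Foxo1 and Foxo3, which are restrained by Akt, by 0.085 and -0.11. Map2k1, a kinase of the MAP kinase pathway, had the lowest unadjusted p of these genes, 0.0699 in limma, with a log2 fold change of 0.090. It passed the unadjusted threshold with the variance of each gene alone, with a mean-variance trend and without dim rows. In the other direction, Foxo3 passed with the trend, with quantile normalization and without dim rows. Foxo3 also passed with a block for the replicate number and without control mouse 1. Tsc2 was lower with the variance of each gene alone. Of 5 genes that neighbour Igf2 and Igf2r or are imprinted with them, 0 passed. Airn, the noncoding RNA gene that overlaps Igf2r on the other strand, had a log2 fold change of 0.078 (95% interval -0.11 to 0.27), and Ins2, the next coding gene to Igf2, one of -0.074.

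**Figure D5:**
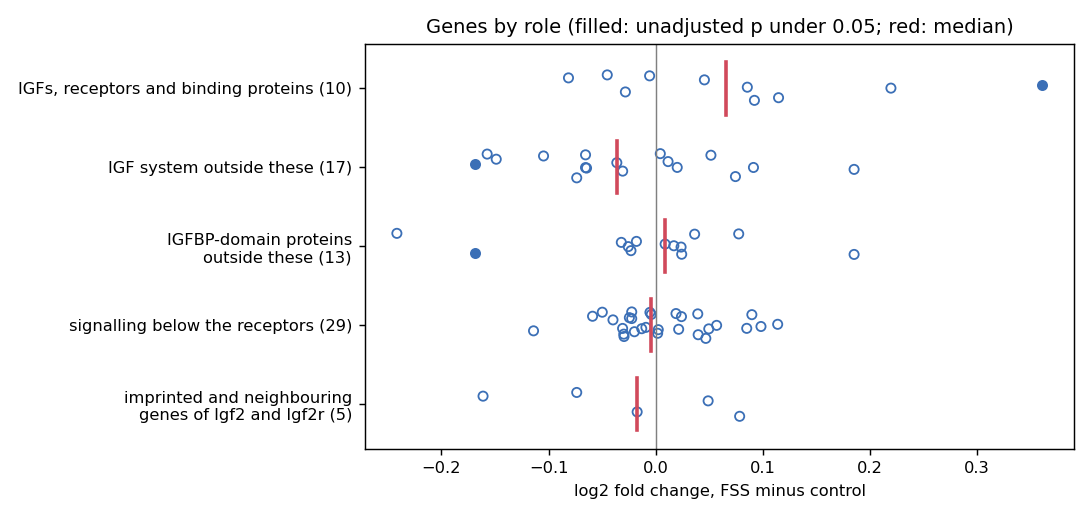
Log2 fold change (x axis, FSS minus control) of the 10 genes of the IGF system and of 4 groups of related genes (y axis, number of genes in brackets), with filled circles for an unadjusted p under 0.05 and a red line for the median. Igfbp2 and Htra1, the latter in 2 groups, are the filled circles, at 0.36 and -0.17.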

How the data were processed

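Hippocampal RNA of 3 control and 3 FSS mice was hybridised to Affymetrix GeneChip Mouse Gene ST arrays. The authors deposited log2 levels that had been made with RMA, and the submitters' processing notes name Affymetrix Expression Console and RMA. The genome build is not given in the sources used here. Scanner values and scan dates were not used, so batches of arrays could not be examined.

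Of 28944 rows, 21789 have 1 gene symbol, 1621 several and 5534 are unnamed here, and the gene IDs of 21698 of the first are in the RefSeq annotation of GRCm38.p6 (0 symbols changed). FSS minus control was fitted over the 21789 rows with limma 3.58.1 (lmFit and eBayes, R 4.3.3, no covariate), with Benjamini-Hochberg adjustment over all rows. The step was run on simulated data drawn from its own model, independently for each gene. Such data cannot show how it handles single outlying mice. Relations were tested by exact permutation over the 6 mice (scipy 1.17.1), and intervals are at 95%. Each related gene was taken from its row of highest mean.

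Named are the 10 genes of the family, genes of the role groups at an unadjusted p under 0.05, and the 5 genes most like Igfbp2 and Igf2 by Pearson's r. The other genes named were picked as examples after their values were seen. The family, the groups and the markers were chosen with earlier results of these data known. The alternatives were other variance models (among them the methods' test for equal variances), array weights, other scalings, a filter on dim rows, the omission of each mouse in turn, and a block for the replicate number. No sequences are printed.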

Additional observations from a re-analysis of the deposited data

How the results depend on the processing

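With 3 mice against 3, only differences large against the spread between mice could pass. At an unadjusted p under 0.05, Igfbp2 passed in all 13 alternatives that keep it (0.25 to 0.43). Its p ranged from 0.00257 in limma (mean-variance trend) to 0.0414 in a t-test without limma's moderation (variance of each gene alone). These alternatives refit the same arrays, and the difference of Igfbp2 was known when the family was picked. For Igfbp2 they therefore add no independent evidence. Igf1r, Igfbp4, Igfbp6 and Igfbp7 kept their direction and did not pass in any of theirs. The filter on dim rows left out Igfbp2 and Igfbp6, and 1 gene of the family (Igf2r) passed there. With the variance of each gene alone, which is the methods' test for equal variances, 2 were higher (Igf2r and Igfbp2), with array weights 2 (the same genes), with a mean-variance trend 3 (Igf2, Igfbp2 and Igfbp5), and without 1 mouse 1 to 2. The rows passing in either direction also changed, from 1121 of all rows in the main fit. They were 1089 with the variance of each gene alone, 1447 with array weights, 1220 with the trend and 808 to 1656 without 1 mouse. Igf1 turned to 0.0047 with array weights and ranged from -0.062 to 0.042 without 1 mouse, and Igfbp3 from -0.091 to 0.027. Each gene of the family had 1 row, so averaging rows gave no other value.

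Of the related genes, 1 was lower, against 2 with the trend, 2 with quantile normalization, 2 without dim rows, 0 with median centring and 0 to 4 without 1 mouse. In the other direction 0 were higher, and 0 without any 1 mouse. Against this, 1 gene, Map2k1, was higher with the variance of each gene alone (t-test without limma's moderation, unadjusted p = 0.0192). It was also higher with the trend (limma unadjusted p = 0.0170) and without dim rows (limma unadjusted p = 0.0353). Over all rows 1121 passed. Without dim rows 718 passed, but out of fewer rows, since this filter kept only rows above the median level. The study's thresholds were passed by 15 rows, by 8 with the variance of each gene alone, by 4 without dim rows and by 11 to 29 without 1 mouse. No row passed an adjusted p of 0.05 under any of the 14 alternatives, in limma or in the t-test without its moderation.

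Whether the replicate number of the labels pairs the mice was not settled. The deviations of same-numbered mice from their group means correlated with -0.048, 0.14 and 0.24 over all rows. Mice 2 and 3 of each group correlated best with the mouse of their own number, and mouse 1 of each group did not. With this replicate block, 4 related genes were lower (Htra1, Ccn2, Foxo3 and Slc22a2) and 1494 rows passed. No call in the family changed (for Igfbp2, limma's unadjusted p was 0.00632). The causes of these changes were not tested.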
